A study of Mus musculus with 45 samples.

Results

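The 37 genes described here are the enzymes, carriers and regulators of fatty acid oxidation in mouse liver, together with further genes whose transcription follows the nuclear receptor PPARA. They were taken by symbol from a table of 24946 usable genes. All 37 were found, and all 37 had a mean of at least 0.5 scaled TPM (the deposited TPM, a relative abundance per transcript length, divided by a factor for each library), so each was tested among 11209 genes.

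Fatty acids are activated to acyl-CoA, passed through the carnitine shuttle into mitochondria, and shortened by repeated cycles of dehydrogenation, hydration, oxidation and thiolysis. Very long and branched chains are first shortened in peroxisomes, and the liver turns much of the resulting acetyl-CoA into ketone bodies. PPARA is activated by fatty acids, most of all in fasting, and it raises the transcription of many of these genes by binding DNA with the receptor RXR.

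RNA was sequenced from whole liver lysate of wild-type mice, in 45 libraries. Libraries carry a diet label (ethanol or control, both as the Lieber-DeCarli liquid diet), a sex label (male or female) and a stage. At peak injury the mice had been fed for 6 weeks. For early and late resolution, the labels describe control diet for 3 days or 2 weeks after 6 weeks of ethanol diet. The labels do not say what control-labelled mice ate in those periods, or the strain and age of the mice. At each stage there were ethanol-labelled male, ethanol-labelled female, control-labelled male and control-labelled female libraries, which makes 12 groups. Of these, 9 groups held 4 libraries, and the early ethanol female, late ethanol female and late ethanol male groups held 3. No label says that the libraries of a group are from different mice, so a p-value here rests on how much libraries vary, which may be technical. Libraries are named below by stage, diet label, sex label and replicate number.

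The sex-chromosome transcripts followed the diet label and not the sex label. Xist, the transcript of the inactive X chromosome, was above the Y-linked Eif2s3y in 21 of 21 ethanol-labelled libraries. The reverse held in 23 of 24 control-labelled libraries. Xist ran from 11.3 to 49.6 scaled TPM in the ethanol-labelled libraries and from 0.00180 to 0.332 in those 23. The exception was late control female 1, with Xist at 33.9 and Eif2s3y and Ddx3y at 0. In all, 22 of 45 libraries went against their sex label. Groups are therefore called by their labels. Every ethanol-labelled minus control-labelled difference is at the same time a difference between Xist-high and Y-transcript-high libraries, apart from late control female 1 at late resolution. The one difference cannot be told from the other. Read as a sex label, with ethanol as female, the diet label matches these transcripts in 44 of 45 libraries. Whether the diet and sex labels were exchanged in the deposited names was not tested. If they were, the differences called sex-label here would be those between diets, and the differences called diet-label those between sexes. Of the lists of sex-biased liver genes, all 15 female-biased ones were called higher with the ethanol label at each stage, and all 13 male-biased ones lower. These lists were chosen with earlier results of these data known, so the counts only describe them. Of all genes, 15.1%, 7.62% and 8.5% were called higher at peak, early and late resolution, and 20.7%, 9.16% and 12.5% lower. The late counts between diet labels and between sex labels, and the late values of some members, are given with and without late control female 1. Other late results include that library. The hepatocyte markers were abundant in every library, with summed levels from 81566 to 202379 scaled TPM. In bulk tissue, fewer cells of a type and less RNA per cell cannot be told apart.

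The members differed by label in opposite ways along the pathway. In ethanol-labelled livers the thioesterases Acot2 and Acot3, the peroxisomal enzyme Ehhadh, the acyl-CoA dehydrogenase Acadl and the ketone enzyme Bdh1 were higher at every stage, and the synthetase Acsl1 was lower at every stage. Ppara itself was not called in any comparison, although with TPM as deposited and with array weights (libraries weighted by their quality) it passed between sex labels at peak. In male-labelled livers at peak, most members that were called were lower, led by Acot3, Acot1 and Pdk4. A gene is called where limma's p, adjusted by Benjamini-Hochberg over all 11209 genes, is under 0.05.

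Between diet labels, 11 of the 37 members were called at peak, 7 higher and 4 lower in ethanol-labelled libraries, where 35.7% of all genes were called (15.1% higher, 20.7% lower). At early resolution 15 were called, 13 higher and 2 lower, with 16.8% of all genes called (7.62% higher, 9.16% lower). At late resolution 10 were called, 7 higher and 3 lower, with 21% of all genes called (8.5% higher, 12.5% lower). The early count is 40.5% of the members, and the peak and late counts are 29.7% and 27.0%, so the peak share lies below that of all genes. The median member difference was 0.10 at peak, 0.23 at early and 0.15 at late resolution on the log2 scale, beside -0.02, -0.03 and -0.02 for all genes tested. Differences were positive in 23, 30 and 26 of 37 members at these stages. With TPM as deposited, without the library factors, 8 members were higher and 2 lower at peak (17.3% and 9.81% of all genes). They were 20 higher and 1 lower at early (14.3% and 2.46%), and 10 higher and 2 lower at late resolution (8.82% and 3.98%). The median of all genes then moved to 0.13 at early resolution. Without late control female 1, 14 members were called at late resolution, 12 higher and 2 lower, with 24.4% of all genes called.

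Between sex labels, 13 members were called at peak, 2 higher and 11 lower in male-labelled libraries, where 31.7% of all genes were called, 16.3% higher and 15.4% lower. The lower calls made up 29.7% of the members. At early resolution 1 member, Hsd17b4, was called, with 1.85% of all genes called. At late resolution 1 member, Angptl4, was called, with 9.64% of all genes called. The median member difference was -0.09 at peak, 0.24 at early and -0.06 at late resolution, while that of all genes stayed between 0.00 and 0.01. At early resolution 34 of 37 members had a positive difference, and 18 had an unadjusted p under 0.05. Shares of all genes to set beside these counts are not given here, and only 1 member was called. The peak split depends on the scaling. With TPM as deposited, 28 members were called and all were lower, but 46.7% of all genes were then lower and their median lay at -0.29. With quantile normalization, 19 were called and all were lower, where 15.8% of all genes were called lower and their median lay at 0.00.

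**Figure D1:**
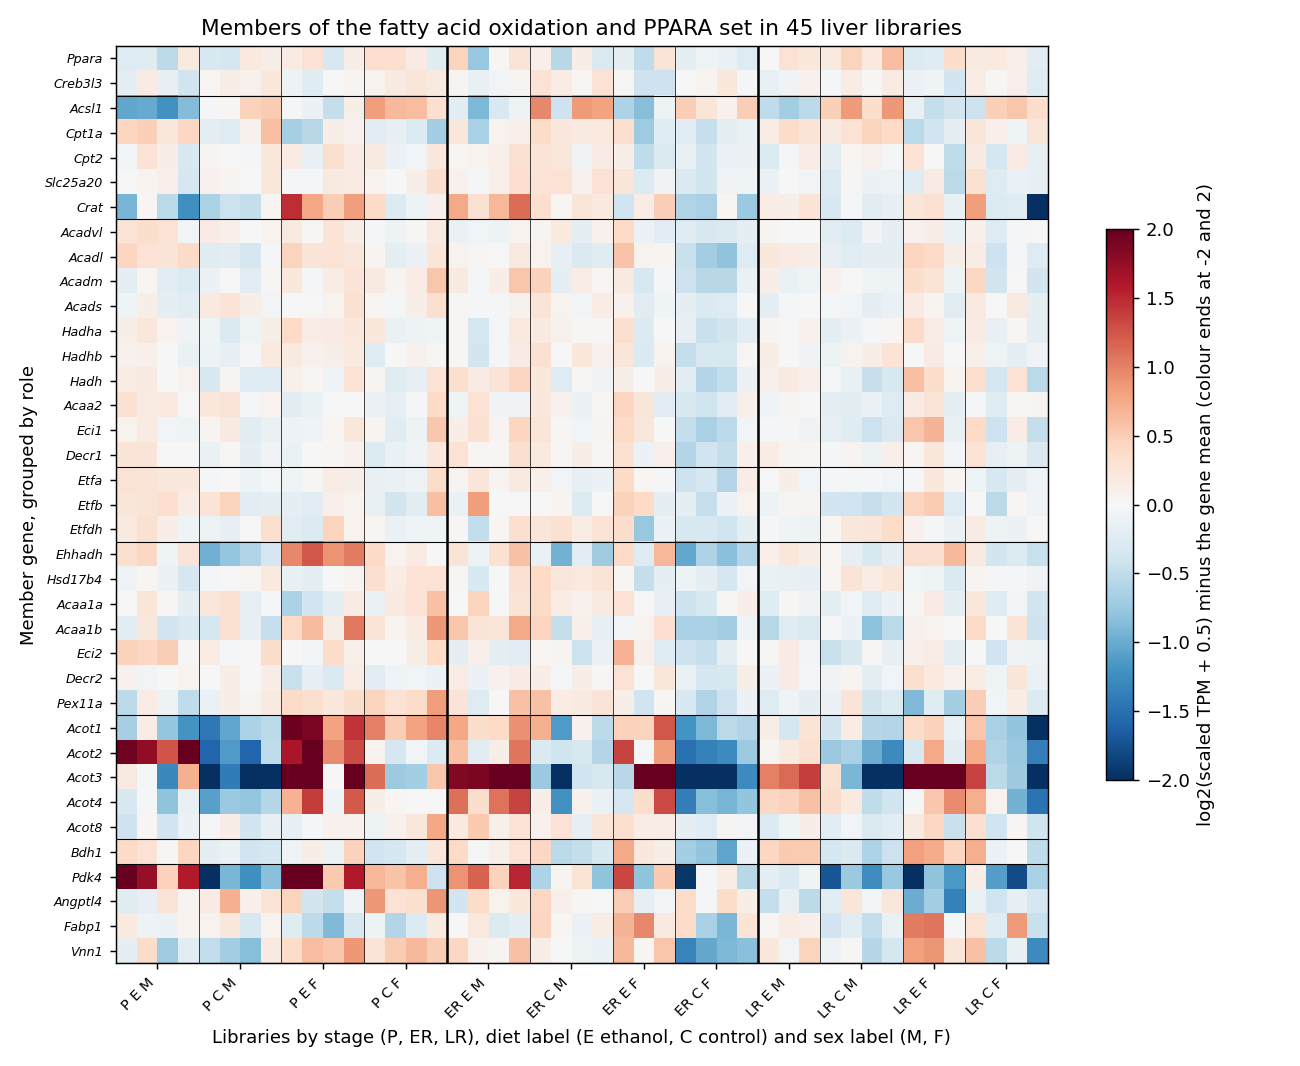
Level of each member (rows, grouped by role) in each of the 45 libraries (columns, by stage, diet label and sex label) as log2(scaled TPM + 0.5) minus the mean of that gene. Colours end at -2 and 2. The thioesterases Acot1 to Acot4 and Pdk4 show the widest swings, and most mitochondrial enzymes stay close to their mean.

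**Figure D2:**
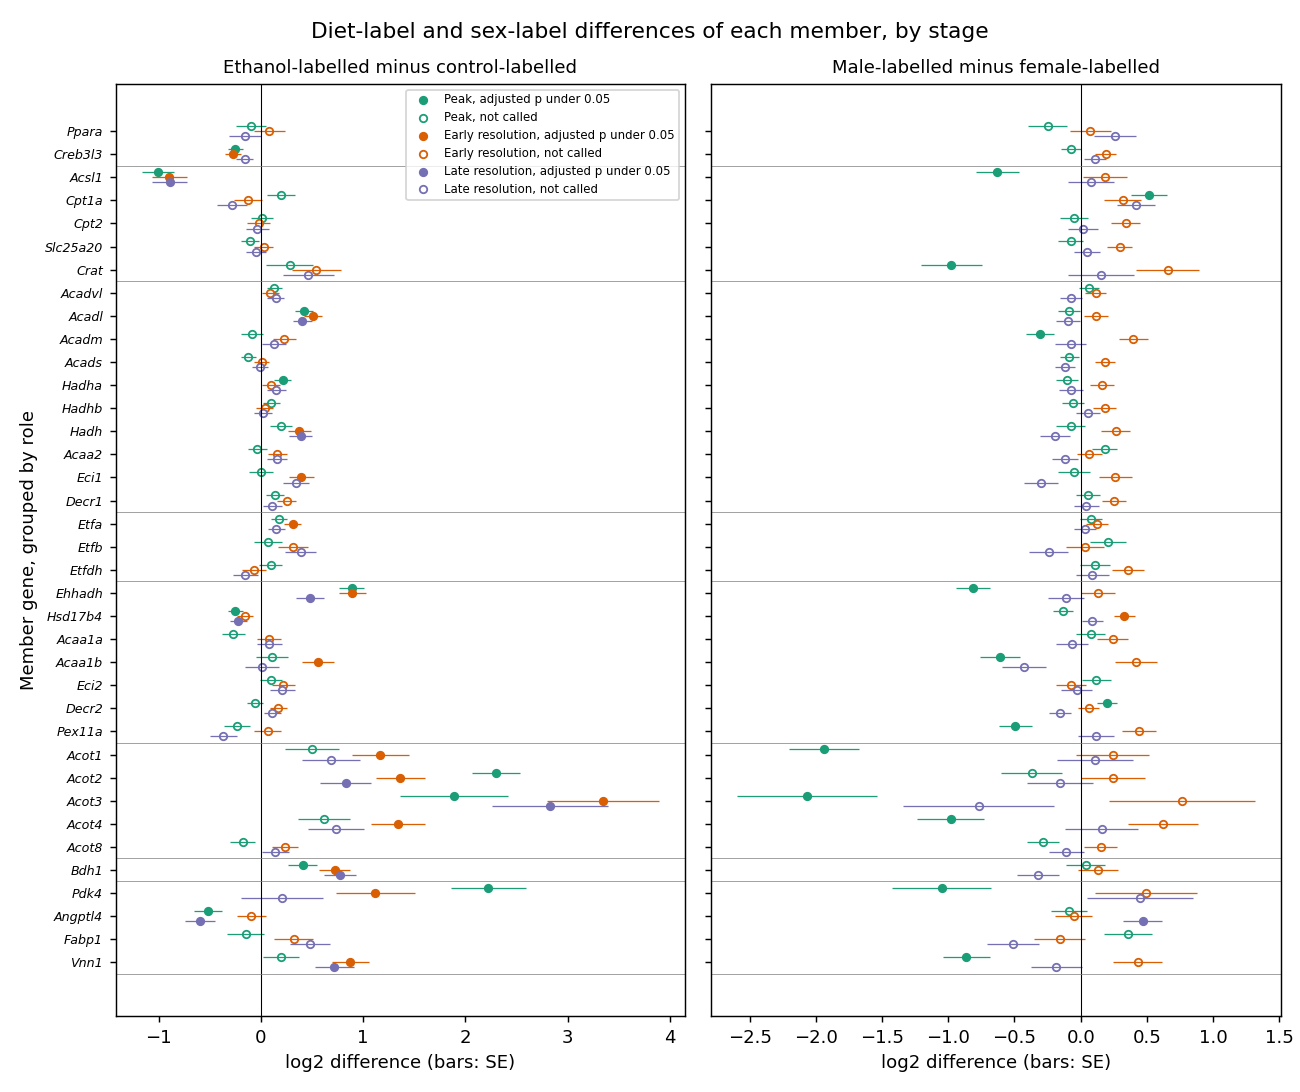
Log2 difference of each member (rows) between diet labels (left) and sex labels (right) at each stage, with bars for the standard error. Filled points have an adjusted p under 0.05. Acot2, Acot3 and Ehhadh lie to the right and Acsl1 to the left between diet labels at all 3 stages, and the sex-label differences of Acot1, Acot3 and Pdk4 lie far to the left at peak only.

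The members span a wide range of abundance. Fabp1, the cytosolic fatty acid carrier of hepatocytes, had a median of 8466 scaled TPM over the 45 libraries, and Acaa2, the mitochondrial thiolase, had 1753. In all, 24 members had a median of at least 100 scaled TPM, and 7 had a median under 20. Those 7 were Acot8, Acot1, Acot3, Crat, Pdk4, Acot4 and Acot2, with medians from 17.9 down to 2.33. The low members also varied most inside a group. The standard deviation within groups, on the log2(scaled TPM + 0.5) scale, was 1.10 for Acot3 and 0.77 for Pdk4, beside a median of 0.24 over the members and 0.14 for the bifunctional enzyme Hsd17b4.

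The regulators moved little. Ppara encodes the receptor itself (chromosome 15, 85734983 to 85802819, plus strand, in mm10 with the GENCODE M21 annotation, as for all coordinates of genes here). At peak it had 79.7 to 141 scaled TPM with a median of 112 in ethanol-labelled libraries, against 91.1 to 145 with a median of 127 in control-labelled libraries. At early resolution its medians were 118 in ethanol-labelled and 104 in control-labelled libraries, and at late resolution they were 124 and 132 in the same order. The label groups overlapped at every stage. Its diet-label difference was -0.10 ± 0.15 at peak, 0.08 ± 0.15 at early and -0.16 ± 0.16 at late resolution (log2, SE), with adjusted p of 0.64, 0.76 and 0.50. Its sex-label difference was -0.25 ± 0.15 at peak, with adjusted p = 0.19, and it passed the threshold there with TPM as deposited (-0.60, adjusted p = 0.015) and with array weights (-0.37, adjusted p = 0.0058). Creb3l3, a liver transcription factor that acts with PPARA in fasting, was lower in ethanol-labelled libraries at peak (-0.25 ± 0.08, adjusted p = 0.0097) and at early resolution (-0.27 ± 0.08, adjusted p = 0.015). Both calls were lost with TPM as deposited, and the early one without early ethanol female 2 (adjusted p = 0.065).

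Acsl1, the main long-chain acyl-CoA synthetase of liver, was lower in ethanol-labelled libraries at every stage (chromosome 8, 46471037 to 46536051, plus strand). At peak it had 243, 250, 218 and 274 scaled TPM in ethanol-labelled male libraries and 490, 461, 362 and 546 in ethanol-labelled female libraries. The control-labelled male libraries had 496, 517, 694 and 715, and the control-labelled female libraries had 901, 785, 773 and 625. Within each sex label the diet labels did not overlap at peak, and pooled over sex labels they did. The difference was -1.01 ± 0.16 at peak, -0.89 ± 0.17 at early and -0.89 ± 0.17 at late resolution, with adjusted p of 8.2e-06, 0.00020 and 0.00035. At early resolution all 7 ethanol-labelled libraries, at 268 to 469 scaled TPM, lay below the median of the 8 control-labelled ones, 707. At late resolution the 6 ethanol-labelled libraries ran from 311 to 452, against 374 to 920 in the 8 control-labelled ones. Without late control female 1, whose 374 was the lowest of them, the control-labelled libraries began at 641 and no longer overlapped the ethanol-labelled ones. Acsl1 was also lower in male-labelled libraries at peak, by -0.63 ± 0.16 (adjusted p = 0.0033).

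Of the carnitine shuttle genes, Cpt1a and Crat were called between sex labels at peak, in opposite directions, and none was called between diet labels. Cpt1a, the outer-membrane transferase that sets the rate of entry into mitochondria, is at chromosome 19, 3322334 to 3385733, plus strand. In male-labelled libraries it ran from 327 to 591 scaled TPM at peak with a median of 488, against 242 to 421 with a median of 331 in female-labelled libraries. The ranges overlapped, and 7 of 8 male-labelled libraries lay above the female-labelled median. The difference was 0.52 ± 0.14 (adjusted p = 0.0040), the opposite sign to most other members called there. It was 0.17 with TPM as deposited (adjusted p = 0.36) and 0.32 with quantile normalization (adjusted p = 0.12). At late resolution the male-labelled libraries had 430 to 528 and the female-labelled ones 267 to 463, a difference of 0.42 ± 0.15 that missed the threshold (adjusted p = 0.061). Between diet labels Cpt1a differed by 0.20, -0.13 and -0.28 from peak to late resolution, with adjusted p of 0.25, 0.59 and 0.17. The inner-membrane transferase Cpt2 and the translocase Slc25a20 were called in none of the 6 diet-label and sex-label comparisons, with differences from -0.11 to 0.34.

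Crat, the carnitine acetyltransferase (chromosome 2, 30400471 to 30415813, minus strand), was lower in male-labelled libraries at peak. It had 5.75, 11.7, 7.65 and 4.56 scaled TPM in ethanol-labelled male libraries and 32.8, 19.7, 16.2 and 20.7 in ethanol-labelled female libraries. In control-labelled libraries the male-labelled values were 7.19, 8.33, 8.09 and 11.9 and the female-labelled values 15.2, 9.31, 10.6 and 12.2. The ethanol-labelled groups did not overlap and the control-labelled groups did. The difference over both diet labels was -0.98 ± 0.23 (adjusted p = 0.0017). At early resolution every male-labelled library, at 11.7 to 25.3, lay above the female-labelled median of 8.50, with a difference of 0.66 that did not pass the threshold.

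Of the 10 mitochondrial beta oxidation genes, 2 were called between diet labels at peak, 3 at early and 2 at late resolution, all higher in ethanol-labelled libraries. The shares of all genes called higher were 15.1%, 7.62% and 8.5% at these stages. Acadl, the long-chain acyl-CoA dehydrogenase (chromosome 1, 66830839 to 66863277, minus strand), was the one called at all 3 stages. It had 181 to 209 scaled TPM in ethanol-labelled libraries at peak with a median of 187, against 121 to 183 with a median of 139 in control-labelled libraries. All 8 ethanol-labelled libraries lay above the control-labelled median, and the ranges touched only at their ends. The difference was 0.42 ± 0.09 at peak, 0.51 ± 0.09 at early and 0.41 ± 0.09 at late resolution, with adjusted p of 0.00021, 7.4e-05 and 0.0019. Hadh, the short-chain hydroxyacyl-CoA dehydrogenase, was higher at early (0.38 ± 0.11, adjusted p = 0.017) and late resolution (0.39 ± 0.12, adjusted p = 0.016). The late call was lost without late control female 4 or late ethanol female 1 (adjusted p of 0.053 and 0.070). Eci1, which isomerizes double bonds, was higher at early resolution (0.40 ± 0.12, adjusted p = 0.025). That call was lost without early control female 2, early ethanol female 1 or early ethanol female 2 (adjusted p of 0.059, 0.056 and 0.054).

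Hadha, the alpha subunit of the mitochondrial trifunctional protein, had 423 to 589 scaled TPM in ethanol-labelled libraries at peak with a median of 495, against 364 to 515 with a median of 419 in control-labelled libraries (chromosome 5, 30118304 to 30155162, minus strand). All 8 ethanol-labelled libraries were above the control-labelled median. The difference of 0.21 ± 0.08 sat at the threshold (adjusted p = 0.047), and 26 of the 45 fits that left out 1 library lost the call (adjusted p up to 0.11). At early and late resolution it was 0.10 and 0.15, not called. Its partner Hadhb differed by 0.10, 0.04 and 0.02 between diet labels, and 19.7% of its 50-base stretches also occur in other genes, so its level is less certain. Acadm, the medium-chain dehydrogenase, was the only one of the 10 called between sex labels, at -0.31 ± 0.11 in male-labelled libraries at peak (adjusted p = 0.027). The call was lost without any one of peak control female 4, peak ethanol female 1, peak ethanol female 4, peak control male 3 or peak ethanol male 4 (adjusted p up to 0.069). Acadvl, Acads, Acaa2 and Decr1, the very long and short-chain dehydrogenases, the thiolase and the dienoyl-CoA reductase, were called in none of the 6 comparisons and differed by -0.12 to 0.25.

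Electron transfer flavoprotein passes electrons from the dehydrogenases to the respiratory chain. Of its genes, Etfa was called at early resolution, higher in ethanol-labelled libraries by 0.31 ± 0.08 (adjusted p = 0.0083). Etfb differed by 0.07, 0.31 and 0.39 between diet labels and was called at no stage. Without late control female 1 its late difference was 0.41 with adjusted p = 0.049. Of its 50-base stretches, 44.8% occur in another annotated gene, so reads may be shared. Etfdh differed by 0.09, -0.07 and -0.16 and was not called.

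Ehhadh, the peroxisomal bifunctional enzyme that hydrates and dehydrogenates acyl-CoA, was higher in ethanol-labelled libraries at every stage (chromosome 16, 21761287 to 21787807, minus strand). At peak it had 195, 209, 147 and 187 scaled TPM in ethanol-labelled male libraries, against 79.7, 91.3, 103 and 123 in control-labelled male libraries. It had 306, 370, 291 and 317 in ethanol-labelled female libraries, against 204, 164, 175 and 155 in control-labelled female libraries. Within each sex label the diet labels did not overlap. The difference was 0.89 ± 0.13 at peak, 0.90 ± 0.13 at early and 0.48 ± 0.14 at late resolution, with adjusted p of 1.0e-06, 3.5e-06 and 0.011. At early resolution the 7 ethanol-labelled libraries had 131 to 247, against 76.6 to 142 in the 8 control-labelled ones. At late resolution the 6 ethanol-labelled libraries had 167 to 246, against 115 to 176 in the control-labelled ones, and without late control female 1 the control-labelled maximum was 161, with no overlap. The same peak values show the sex-label difference, -0.81 ± 0.13 (adjusted p = 1.6e-05), which was -0.80 within ethanol-labelled and -0.82 within control-labelled libraries.

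Hsd17b4, the second peroxisomal bifunctional enzyme, went the other way between diet labels (chromosome 18, 50128201 to 50196269, plus strand). It had 284 to 372 scaled TPM in ethanol-labelled libraries at peak with a median of 336, against 351 to 449 with a median of 404 in control-labelled libraries. All 8 ethanol-labelled libraries lay below the control-labelled median. The difference was -0.25 ± 0.07 at peak (adjusted p = 0.0074), -0.16 and not called at early resolution, and -0.22 ± 0.08 at late resolution (adjusted p = 0.045). The peak call was lost with TPM as deposited (-0.17, adjusted p = 0.25) and with quantile normalization (-0.21, adjusted p = 0.067), and 18 fits that left out 1 library lost the late one, among them the fit without late control female 1 (adjusted p = 0.065). Hsd17b4 was higher in male-labelled libraries at early resolution, with 290 to 474 against 256 to 366 in female-labelled libraries (0.33 ± 0.08, adjusted p = 0.020). This call was lost without early ethanol female 2 or early ethanol male 4 (adjusted p of 0.14 and 0.068), with TPM as deposited (adjusted p = 0.13) and with quantile normalization (adjusted p = 0.064).

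Among the other peroxisomal genes, the thiolase Acaa1b was higher in ethanol-labelled libraries at early resolution, at 498 to 876 scaled TPM against 319 to 701 in control-labelled libraries (0.56 ± 0.16, adjusted p = 0.013). It was lower in male-labelled libraries at peak, at 376 to 638 against 544 to 1071 in female-labelled libraries (-0.61 ± 0.15, adjusted p = 0.0030). The near copies Acaa1a and Acaa1b share 12.9% and 30.5% of their 50-base stretches with other genes, so the counting could split reads between them. Pex11a, which takes part in peroxisome division, had 104 to 170 in male-labelled libraries at peak, against 174 to 268 in female-labelled libraries, with no overlap of the 8 and 8 libraries, as for 1.42% of all genes (-0.49 ± 0.13, adjusted p = 0.0034). Decr2, the peroxisomal dienoyl-CoA reductase, passed the threshold at peak between sex labels (0.20 ± 0.08, adjusted p = 0.046), but the sign turned with TPM as deposited (-0.15) and 16 fits that left out 1 library lost the call. Eci2 and Acaa1a were called in none of the 6 comparisons.

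**Figure D3:**
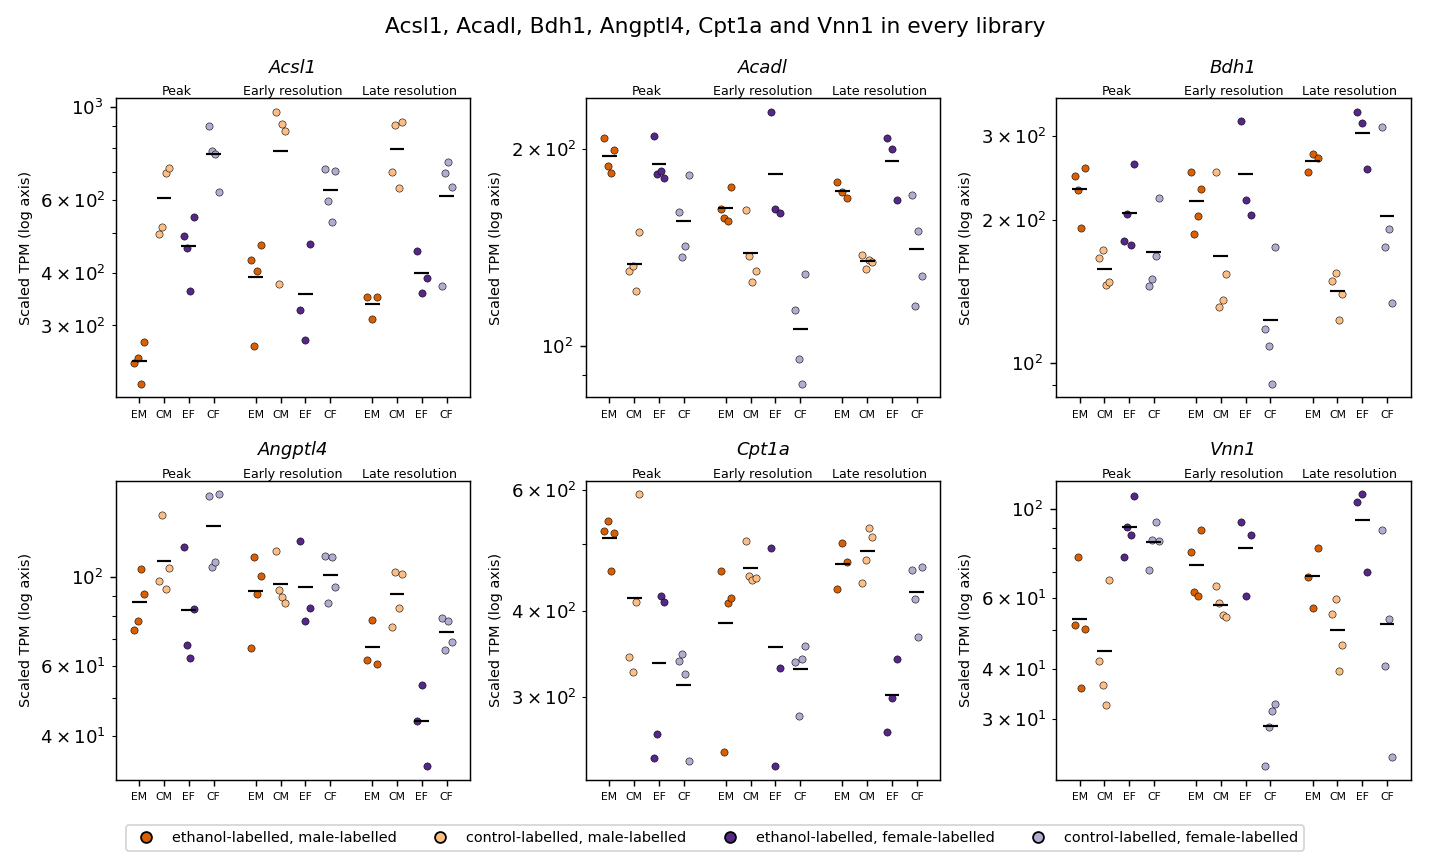
Scaled TPM on a log axis of Acsl1, Acadl, Bdh1, Angptl4, Cpt1a and Vnn1 in each library, by stage, diet label and sex label, with a bar for the group mean. Acsl1 lies lower and Acadl and Bdh1 higher in the ethanol-labelled groups at each stage.

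The acyl-CoA thioesterases split acyl-CoA into free fatty acid and CoA. They held the largest differences of the set. Acot1 acts in the cytosol, Acot2 in mitochondria, and Acot3, Acot4 and Acot8 in peroxisomes. The genes Acot2, Acot1, Acot4 and Acot3 lie side by side on chromosome 12, between 83987861 and 84060402, all on the plus strand. Because all 4 neighbours were called higher with the ethanol label at early resolution, the 300 bases around each start are shown from RefSeq (GRCm38.p6, plus strand, 250 before and 50 after the start), with Fabp1, the member whose window came closest to the PPARA motif, for comparison. The search used AGGTCANAGGTCA, a direct repeat of AGGTCA with 1 base between, on both strands with at most 2 mismatches. Capitals mark such a match and any exact AGGTCA or its reverse complement TGACCT.

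Acot2 chr12:83987611-83987910: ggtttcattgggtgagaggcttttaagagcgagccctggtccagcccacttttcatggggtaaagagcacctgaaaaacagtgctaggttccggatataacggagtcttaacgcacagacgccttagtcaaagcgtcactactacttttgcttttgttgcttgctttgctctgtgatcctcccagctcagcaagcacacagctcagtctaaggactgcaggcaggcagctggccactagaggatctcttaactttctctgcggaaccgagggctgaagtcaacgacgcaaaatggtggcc
Acot1 chr12:84009252-84009551: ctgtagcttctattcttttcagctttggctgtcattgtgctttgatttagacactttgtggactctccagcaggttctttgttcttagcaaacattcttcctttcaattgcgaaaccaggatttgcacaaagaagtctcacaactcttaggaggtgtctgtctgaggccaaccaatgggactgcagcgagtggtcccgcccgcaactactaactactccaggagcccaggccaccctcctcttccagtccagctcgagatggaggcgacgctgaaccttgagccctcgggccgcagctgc
Acot4 chr12:84038129-84038428: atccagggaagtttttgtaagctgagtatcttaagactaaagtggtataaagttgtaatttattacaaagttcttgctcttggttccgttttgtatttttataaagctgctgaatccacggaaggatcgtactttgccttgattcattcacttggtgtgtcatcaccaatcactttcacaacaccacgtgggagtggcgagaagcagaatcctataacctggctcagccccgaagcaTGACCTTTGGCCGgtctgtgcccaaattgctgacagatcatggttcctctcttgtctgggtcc
Acot3 chr12:84051894-84052193: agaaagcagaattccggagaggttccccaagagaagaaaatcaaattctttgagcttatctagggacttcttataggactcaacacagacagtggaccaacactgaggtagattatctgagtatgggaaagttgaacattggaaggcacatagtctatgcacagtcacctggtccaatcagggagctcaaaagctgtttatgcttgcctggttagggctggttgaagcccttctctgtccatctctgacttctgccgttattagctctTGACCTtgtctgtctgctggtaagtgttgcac
Fabp1 chr6:71199629-71199928: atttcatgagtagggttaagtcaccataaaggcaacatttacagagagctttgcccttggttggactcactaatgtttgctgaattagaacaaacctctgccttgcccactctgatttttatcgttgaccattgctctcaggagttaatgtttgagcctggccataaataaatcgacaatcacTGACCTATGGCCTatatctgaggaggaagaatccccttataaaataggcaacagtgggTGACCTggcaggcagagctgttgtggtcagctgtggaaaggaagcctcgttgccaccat

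Windows were found for 31 of the 37 members. The repeat, with at most 2 mismatches, was found in 5 of the 31, Acot4, Creb3l3, Etfa, Fabp1 and Slc25a20, which is 16.1%, beside 4.40% of 27025 genes with a window of the same length. The Fabp1 match had 1 mismatch and began 67 bases before the start, and the Acot4 match had 2 and began 13 bases before it. The 6 letters AGGTCA on either strand were found in 7 of 31 members (22.6%) and in 18.1% of all windows. These are matches of letters in a window around the start and not binding sites.

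Acot2 was higher in ethanol-labelled libraries at every stage, and most at peak. At peak it had 12.2, 10.9, 7.38 and 14.3 scaled TPM in ethanol-labelled male libraries, against 0.599, 1.00, 0.600 and 1.83 in control-labelled male libraries. It had 9.75, 12.6, 5.85 and 7.65 in ethanol-labelled female libraries, against 2.99, 2.13, 2.68 and 2.23 in control-labelled female libraries. All 8 ethanol-labelled libraries lay above all 8 control-labelled ones, and Acot2 was the only member of the 37 with this separation between diet labels at peak, where 4.1% of all genes separated in either direction. The difference was 2.30 ± 0.23 (adjusted p = 1.1e-09), with 2.99 ± 0.33 in male-labelled and 1.61 ± 0.33 in female-labelled libraries. The difference between those values was not called (adjusted p = 0.17). At early resolution the ethanol-labelled libraries had 2.33 to 7.99, against 0.675 to 2.21 in control-labelled libraries, again without overlap, as for 3.18% of all genes (1.36 ± 0.24, adjusted p = 8.8e-05). At late resolution they had 2.15 to 5.09, against 0.788 to 5.02 (0.83 ± 0.25, adjusted p = 0.017). The value 5.02 belonged to late control female 1. Without it the control-labelled maximum was 1.69, with no overlap, and the difference was 1.04. In all, 6 of 37 members then separated between diet labels, beside 5.77% of all genes. The late call was lost without late control female 4 (adjusted p = 0.053) or late ethanol female 2 (adjusted p = 0.076).

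Acot3 is also one of the genes on the female-biased list. At peak it had 13.9, 11.9, 4.70 and 20.3 scaled TPM in ethanol-labelled male libraries and 60.7, 78.2, 12.3 and 60.4 in ethanol-labelled female libraries. The control-labelled male libraries had 1.80, 4.31, 1.70 and 2.15, and the control-labelled female libraries had 27.2, 7.23, 7.45 and 18. The ethanol-labelled male libraries overlapped the control-labelled female ones, and within male-labelled libraries the diet labels did not overlap. The diet-label difference was 1.89 ± 0.53 at peak, 3.35 ± 0.55 at early and 2.83 ± 0.57 at late resolution, with adjusted p of 0.0051, 2.9e-05 and 0.00056. At early resolution ethanol-labelled libraries had 8.15 to 79.8, against 0.783 to 9.72 in control-labelled libraries. At late resolution they had 25.2 to 80.5, against 0.527 to 31.9, and without late control female 1, which had the 31.9, the control-labelled maximum was 15.2, with no overlap. In male-labelled libraries Acot3 was lower at peak, by -2.07 ± 0.53 (adjusted p = 0.0034).

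Acot1 and Acot4 were called between diet labels at early resolution. Acot1 then had 14.4 to 27.2 scaled TPM with a median of 15.6 in ethanol-labelled libraries, against 4.62 to 18.6 with a median of 7.44 in control-labelled libraries (1.17 ± 0.27, adjusted p = 0.0027). Acot4 had 4.52 to 15.7 with a median of 13, against 1.93 to 6.42 with a median of 3.09 (1.34 ± 0.26, adjusted p = 0.00038). All 7 ethanol-labelled libraries lay above the control-labelled median for both genes. At peak their differences were 0.50 and 0.62, and at late resolution 0.69 and 0.74, none of them called. Without late control female 1, which had 16.7 for Acot1 and 9.97 for Acot4, the late differences were 0.91 (adjusted p = 0.010) and 0.92 (adjusted p = 0.0089). That library was the highest of the control-labelled libraries at late resolution for Acot1, Acot2, Acot3 and Acot4.

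Between sex labels at peak, Acot1 gave one of the clearest separations of the set. It had 6.86, 12.4, 6.36 and 4.58 scaled TPM in ethanol-labelled male libraries, against 44.8, 42.6, 19.9 and 31.3 in ethanol-labelled female libraries. It had 3.82, 5.16, 7.0 and 7.52 in control-labelled male libraries, against 23.0, 16, 19.8 and 22.5 in control-labelled female libraries. No male-labelled library reached a female-labelled one. The difference was -1.94 ± 0.26 (adjusted p = 3.0e-06), with -2.14 ± 0.37 in ethanol-labelled and -1.74 ± 0.37 in control-labelled libraries. Acot4 was lower in male-labelled libraries too, at 2.48 to 5.66 against 5.46 to 16.2 (-0.98 ± 0.25, adjusted p = 0.0036). At early and late resolution no thioesterase was called between sex labels. Acot8 was called nowhere, with differences from -0.29 to 0.24. Acot1, Acot2 and Acot3 share 19.2%, 27.7% and 19.1% of their 50-base stretches with other genes, mostly with each other for Acot1 and Acot2. Reads may be split between them, so their separate levels are less certain. Shared reads could also make them move alike, which was not tested.

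**Figure D4:**
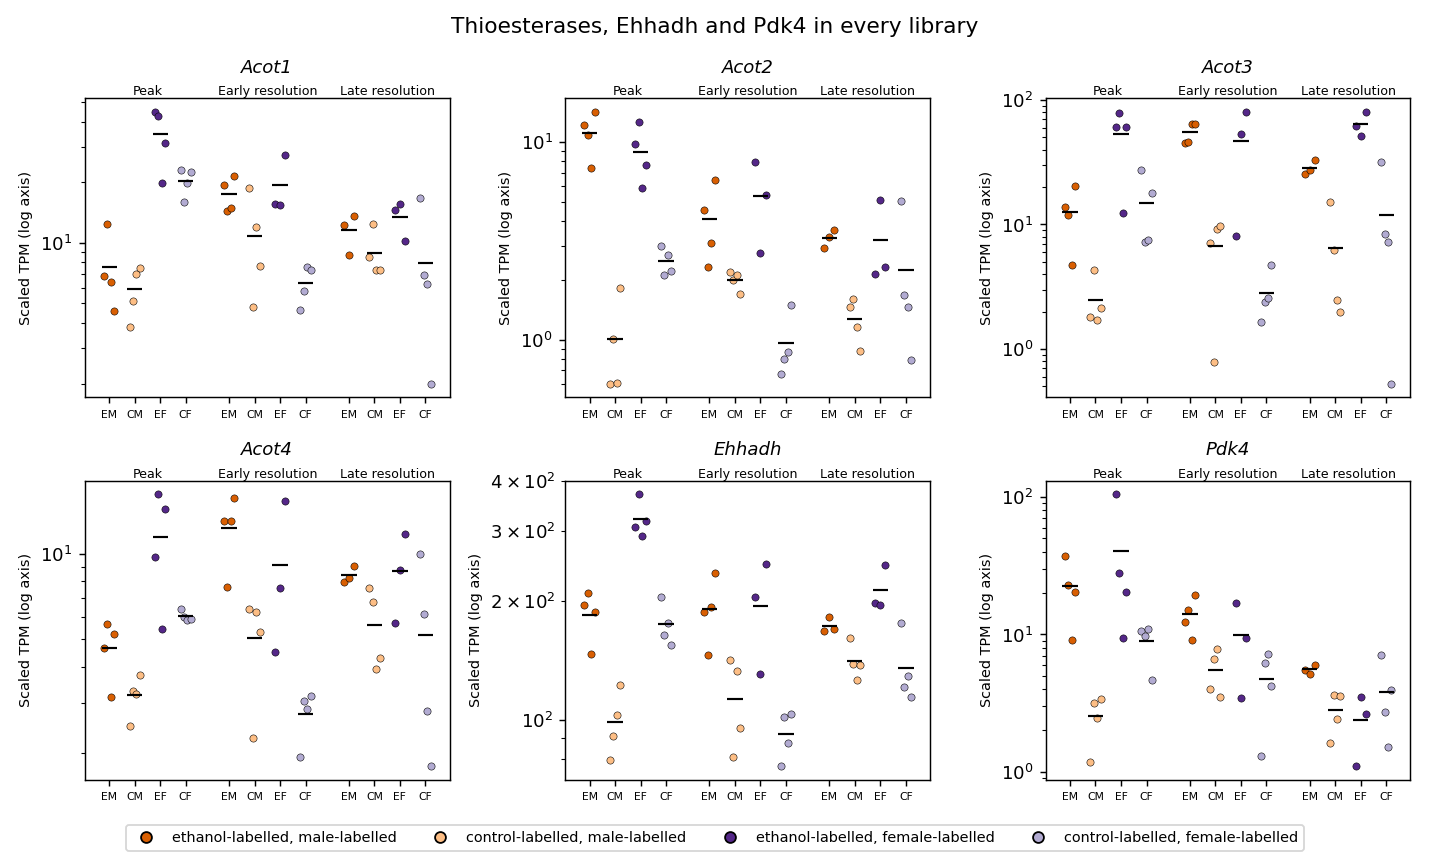
Scaled TPM on a log axis of Acot1, Acot2, Acot3, Acot4, Ehhadh and Pdk4 in each library, by stage, diet label and sex label, with a bar for the group mean. Ehhadh lies higher in the ethanol-labelled groups at each stage, and Pdk4 spans 1.10 to 105. At peak the Acot2 values of ethanol-labelled libraries (5.85 to 14.3) lie above those of control-labelled libraries (0.599 to 2.99), and the Acot1 values of male-labelled libraries (3.82 to 12.4) lie below those of female-labelled libraries (16 to 44.8).

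Bdh1, the mitochondrial enzyme that interconverts acetoacetate and beta-hydroxybutyrate, was higher in ethanol-labelled libraries at every stage (chromosome 16, 31422280 to 31458901, plus strand). It had 177 to 262 scaled TPM at peak with a median of 218, against 145 to 222 with a median of 158 in control-labelled libraries. At early resolution it had 187 to 322, against 90.6 to 251, and at late resolution 252 to 337, against 123 to 313. Every ethanol-labelled library lay above the control-labelled median of its stage, and the ranges overlapped. The difference was 0.41 ± 0.15, 0.72 ± 0.15 and 0.77 ± 0.16 at the 3 stages, with adjusted p of 0.027, 0.00083 and 0.00063. The peak call was lost without any one of peak control female 1, peak control female 2, peak ethanol female 4 or peak ethanol male 4 (adjusted p of 0.051 to 0.066). The late value of 313 belonged to late control female 1, and without it the control-labelled maximum was 191, with no overlap.

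Pdk4, the kinase that turns off pyruvate dehydrogenase and so spares glucose when fat is burned, had the second largest diet-label difference of the set at peak (chromosome 6, 5483351 to 5496309, minus strand). It had 37.5, 22.8, 9.06 and 20.2 scaled TPM in ethanol-labelled male libraries, against 1.18, 3.18, 2.47 and 3.40 in control-labelled male libraries. It had 105, 28.2, 9.43 and 20.5 in ethanol-labelled female libraries, against 10.5, 9.76, 10.9 and 4.70 in control-labelled female libraries. The male-labelled groups did not overlap, and the female-labelled groups did. The difference was 2.23 ± 0.37 at peak (adjusted p = 1.6e-05). At early resolution it was 1.12 ± 0.39 (adjusted p = 0.042), with 3.47 to 19.4 in ethanol-labelled against 1.31 to 7.83 in control-labelled libraries. Leaving out 1 library ended that call in 9 fits (adjusted p up to 0.12). At late resolution it had 1.10 to 6.03, against 1.5 to 7.10, and a difference of 0.21 that was not called. In male-labelled libraries at peak Pdk4 was lower by -1.05 ± 0.37 (adjusted p = 0.029). This call was lost without peak control female 1, peak control female 3, peak ethanol female 1, peak control male 1 or peak ethanol male 3 (adjusted p of 0.052 to 0.11), and without peak ethanol female 1, which had the value of 105, the difference was -0.73.

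Angptl4, a secreted inhibitor of lipoprotein lipase, was lower in ethanol-labelled libraries at peak and late resolution (chromosome 17, 33773750 to 33781830, minus strand). It had 62.6 to 119 scaled TPM at peak with a median of 80.4, against 93.4 to 161 with a median of 108 in control-labelled libraries. At late resolution it had 33.7 to 78.1, against 65.6 to 103. The difference was -0.52 ± 0.14 at peak and -0.60 ± 0.15 at late resolution, with adjusted p of 0.0029 and 0.0040. At early resolution it was -0.10 and was not called. In male-labelled libraries at late resolution Angptl4 had 60.5 to 103, against 33.7 to 79.1 in female-labelled libraries (0.47 ± 0.15, adjusted p = 0.039). Of the 45 fits that left out 1 library, 11 lost that call, among them the fit without late control female 1 (0.49, adjusted p = 0.052), and without that library no member was called between sex labels at late resolution, with 5.25% of all genes called.

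Vnn1, the pantetheinase that releases cysteamine from pantetheine, was higher in ethanol-labelled libraries at early and late resolution (chromosome 10, 23894688 to 23905343, plus strand). At early resolution it had 92.9, 60.9 and 86.4 scaled TPM in ethanol-labelled female libraries, against 22.9, 28.7, 31.5 and 32.7 in control-labelled female libraries. The male-labelled libraries had 78.3, 62.3, 61.0 and 88.8 with the ethanol label, against 64.5, 58.5, 54.7 and 53.8 with the control label. The female-labelled groups lay far apart and the male-labelled groups overlapped. The difference was 0.88 ± 0.18 at early and 0.72 ± 0.19 at late resolution, with adjusted p of 0.00083 and 0.0076. It was 1.44 ± 0.27 in female-labelled and 0.31 ± 0.25 in male-labelled libraries at early resolution, and the difference between these was not called (adjusted p = 0.59). At peak Vnn1 was lower in male-labelled libraries, at 32.5 to 75.9 against 70.8 to 108 in female-labelled libraries (-0.86 ± 0.18, adjusted p = 0.00045). Fabp1 differed by -0.15, 0.32 and 0.48 between diet labels and by 0.36, -0.16 and -0.51 between sex labels, and was called in none of these.

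None of the 13 members called between sex labels at peak was called between them at the later stages. Of all genes, 1.85% were called between sex labels at early and 9.64% at late resolution. How many of all genes called at peak were called again is not given here. For 13 members the male-labelled minus female-labelled difference was called as different at early resolution from peak, all 13 higher, with 16.5% of all genes called and 9.12% higher. For 10 members it was called between peak and late resolution, 8 higher and 2 lower, with 20.2% of all genes called (11.3% higher, 8.92% lower). With TPM as deposited these counts were 27, all higher, and 19, all higher, with 29.6% and 34.6% of all genes called higher. The late count was 4 without late ethanol female 1 and 6 without late ethanol male 1, with the shares of all genes in those fits not given here. Acot1 moved most clearly, by 2.18 ± 0.38 to early and by 2.05 ± 0.39 to late resolution, with adjusted p of 0.00028 and 0.00084. The sex-label difference of Ehhadh moved by 0.94 ± 0.18 and 0.70 ± 0.18, and that of Crat by 1.64 ± 0.33 and 1.13 ± 0.34. Pex11a moved by 0.93 ± 0.18 to early resolution, where all 8 male-labelled libraries lay above the female-labelled median.

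Few members were called for a change of the diet-label difference between stages. From peak to early resolution limma called no member (0.178% of all genes), with 10 members at an unadjusted p under 0.05. From peak to late resolution it called 2, Acot2 (-1.47 ± 0.34, adjusted p = 0.0097) and Pdk4 (-2.02 ± 0.55, adjusted p = 0.019), both lower. These are 5.41% of the members, below the 12% of all genes called. Without late ethanol female 1 it called 1, with Pdk4 lost (adjusted p = 0.057), and without late ethanol female 3 it called 4. With the replicate number as a block the Pdk4 call was lost as well (adjusted p = 0.13). Without late control female 1 limma called 3, 1 higher and 2 lower, with 13.7% of all genes called. Without early ethanol female 1 it called 1 for the change to early resolution. The shares of all genes called without those ethanol-labelled libraries are not given here. Acot2 and Pdk4 had their largest diet-label difference at peak. Whether the diet-label difference depended on the sex label was tested at each stage. No member was called, with 2, 10 and 1 of the 37 at an unadjusted p under 0.05 at peak, early and late resolution. The share of all genes at an unadjusted p under 0.05 is not given here, for these or for the change to early resolution. Of all genes 0.428%, 0% and 0.0714% were called. The stage comparisons share libraries: the change to early and the change to late resolution both subtract the same peak difference.

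**Figure D5:**
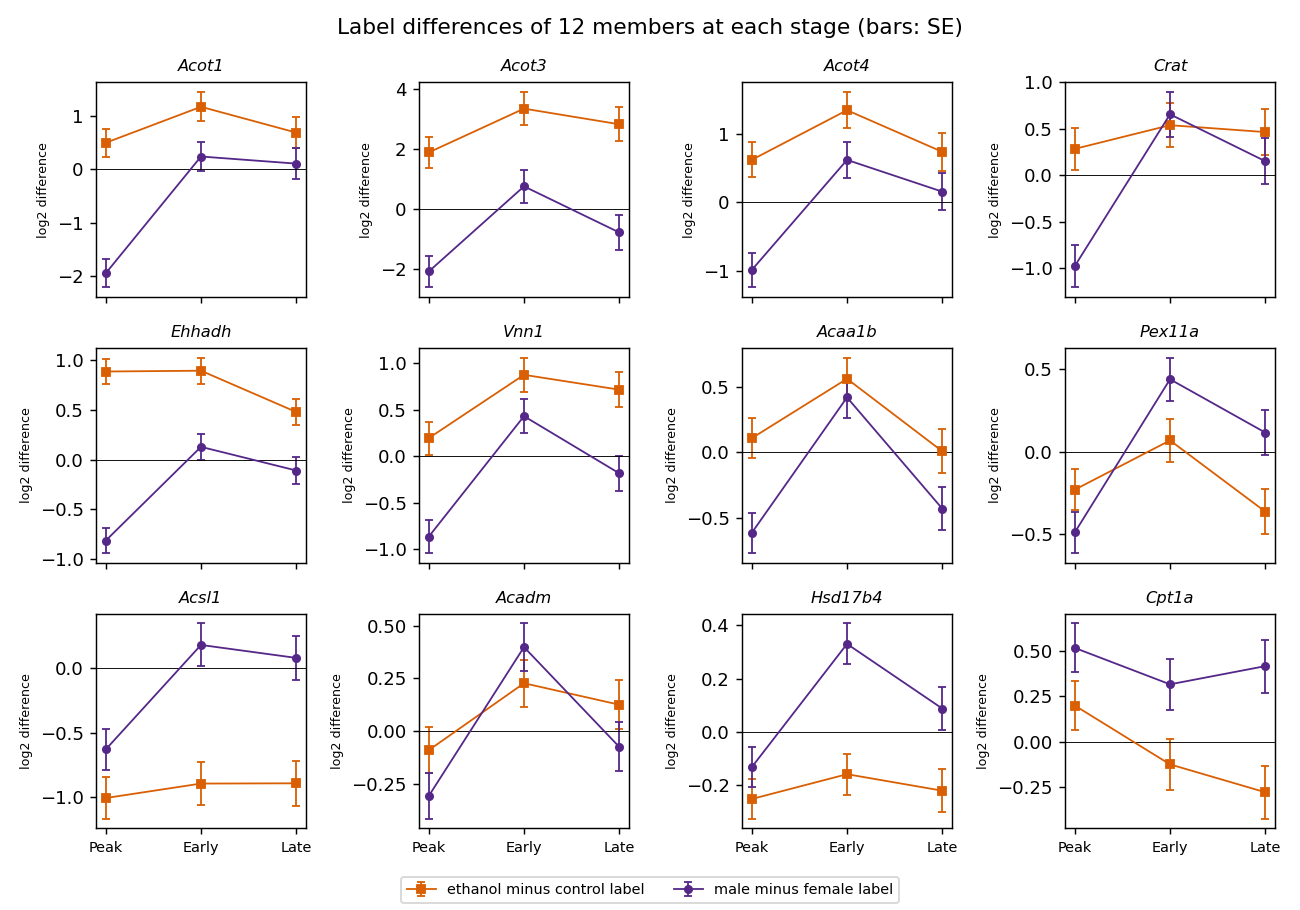
Log2 differences between diet labels and between sex labels, at peak, early and late resolution, with bars for the standard error. The members shown are Acot1, Acot3, Acot4, Crat, Ehhadh, Vnn1, Acaa1b, Pex11a, Acsl1, Acadm, Hsd17b4 and Cpt1a. The sex-label differences of Acot1 and Acot3 lie near -2 at peak and near 0 or above at early resolution. The diet-label difference of Acsl1 lies below 0 at each stage.

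Other genes of the same pathways were read from a list of 50, of which 49 were tested. Between diet labels 20 were called at peak (9 higher, 11 lower), 13 at early (6 higher, 7 lower) and 14 at late resolution (5 higher, 9 lower). These are 40.8%, 26.5% and 28.6% of the list, beside 35.7%, 16.8% and 21% of all genes. Nudt7, a peroxisomal CoA diphosphatase, had 91.1 to 179 scaled TPM in ethanol-labelled libraries at peak, against 263 to 1145 in control-labelled libraries, and a difference of -2.23 ± 0.25 (adjusted p = 8.2e-09). Scp2, which holds the peroxisomal thiolase for branched chains, differed by -0.94, -0.85 and -0.97 at the 3 stages. Phyh, which starts the oxidation of phytanic acid, differed by -0.79, -0.64 and -0.71. Abcd2, a peroxisomal fatty acyl-CoA importer that is also on the female-biased list, differed by 1.71, 2.23 and 1.82. All 4 were called at every stage. Between sex labels 17 of the list were called at peak (6 higher, 11 lower), 34.7% beside 31.7% of all genes, with 2 at early and 1 at late resolution. Lpin1, a phosphatidate phosphatase that also acts with PPARA, was higher in male-labelled libraries by 1.68 ± 0.38 at peak and 1.52 ± 0.41 at late resolution. Mlycd, which removes the Cpt1a inhibitor malonyl-CoA, was lower at peak by -0.51 ± 0.09, and Hacl1, of peroxisomal alpha oxidation, differed by -0.57 at peak and by 0.77 at early resolution.

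Markers of feeding and of other cells moved beside these results, and their part in them was not tested. At peak, 8 of 10 lipogenic and fed-state genes were higher in male-labelled libraries, where 16.3% of all genes were called higher, with sums of 2566 to 7167 scaled TPM against 1293 to 2299 in female-labelled libraries. These sums did not overlap at peak, and at early and late resolution none of the 10 was called between sex labels. The 3 neutrophil markers tested were also higher in male-labelled libraries at peak, beside the same 16.3% of all genes called higher. The sums over all 5 neutrophil markers listed, tested or not, were 31.5 to 190 against 4.21 to 61.9. Between diet labels at peak, 7 of 7 endothelial and 6 of 7 stellate cell markers were higher in ethanol-labelled libraries, where 15.1% of all genes were called higher. Their sums were 99.3 to 218 against 63.0 to 193 for the endothelial list, and 88.8 to 203 against 35.3 to 108 for the stellate list. At early resolution 0 endothelial and 1 stellate marker were called between diet labels, and at late resolution 0 and 0. Of the 8 Kupffer cell and macrophage markers, 0 were called at peak and 4 at each later stage, all higher in ethanol-labelled libraries, beside 7.62% and 8.5% of all genes. Their sums had medians of 292 in ethanol-labelled and 189 in control-labelled libraries at early resolution, and 295 and 185 in the same order at late resolution. The hepatocyte sums at late resolution were 156323 to 184066 in ethanol-labelled libraries, against 98150 to 153199 in control-labelled libraries, with no overlap, and 2 of the 6 hepatocyte markers were called, 1 higher and 1 lower.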

How the data were processed

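Bulk RNA sequencing of mouse liver gave 45 libraries in 12 groups. The authors deposited one table of TPM with 24972 entries. Although it is named as counts, the libraries share one total, and among low genes the smallest value shrinks as exons lengthen (rho = -0.64 over 2731 genes, a description), as in TPM. Per the labels' protocols, RNA came from a spin-column kit and libraries from a stranded mRNA kit, and per the submitters' processing notes the build is mm10. No source used here gives the aligner, the counter or the annotation. TPM keep no depth, so the reads behind a value and its counting error are unknown, and no whole reads were recovered.

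After 26 entries with date-like or repeated names (0.0441% of TPM) were left out, 24946 genes remained, of which 15093 to 16402 were above 0 in a library. TPM were divided by a median-of-ratios factor per library (0.737 to 1.28, over 13216 genes), giving scaled TPM. limma 3.58.1 (R 4.3.3) was used with group means and a variance trend (33 residual, 3.21 prior degrees of freedom), fitted to log2(scaled TPM + 0.5) for 11209 genes averaging 0.5 or more. Benjamini-Hochberg adjustment covered all of them, and an adjusted p under 0.05 is a call. Diet-label differences are ethanol minus control, sex-label differences male minus female, each averaged over the other label, and ± is the standard error. Folds on this scale understate the change of low genes. On data simulated from these libraries, 58 to 66 of 100 genes changed by 0.5 (log2) and 89 to 93 of 100 changed by 1 were recovered over the 6 label comparisons, with 6 to 15 false calls.

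The members and lists were chosen with earlier results of these data known. Values by library are given for the 6 members with the largest called difference in each of the 6 comparisons, plus Ppara, Cpt1a and Hadha. From the list of other pathway genes, those with the 4 smallest p in a comparison could be named. Alternatives were other scalings, pseudocounts, filters and variance models, a replicate block, each stage alone, and leaving out each library. Shared 50-base stretches were searched in GENCODE M21 transcripts. Tables and figures used Python 3.11.15, pandas 2.3.3 and matplotlib 3.10.9.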

Additional observations from a re-analysis of the deposited data

Results flagged for a closer look

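For 13 members the male-labelled minus female-labelled difference (log2) itself differed between early resolution and peak in limma's fit, each time being higher at early resolution. The change was 2.83 for Acot3, 2.18 for Acot1, 1.64 for Crat, 1.60 for Acot4, 1.55 for Pdk4 and 1.30 for Vnn1. It was 1.03 for Acaa1b, 0.94 for Ehhadh, 0.93 for Pex11a, 0.81 for Acsl1 and 0.71 for Acadm. It was 0.46 for Hsd17b4 and 0.37 for Slc25a20. Of the 45 fits that left out 1 library, 26 lost the call of Slc25a20 and 15 that of Pdk4.

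Between late resolution and peak the sex-label difference changed for 10 members. It was higher at late resolution by 2.05 for Acot1, 1.5 for Pdk4, 1.14 for Acot4, 1.13 for Crat, 0.71 for Acsl1, 0.70 for Ehhadh, 0.61 for Pex11a and 0.56 for Angptl4. It was lower by -0.86 for Fabp1 and -0.35 for Decr2. Of the 45 fits that left out 1 library, 26 lost the call of Pdk4, 17 that of Angptl4, 6 that of Acsl1 and 3 that of Acot4. The calls of Fabp1 and Decr2 were lost in 2 each and that of Pex11a in 1. The Fabp1 call was also lost with TPM as deposited (-0.46, adjusted p = 0.19) and with quantile normalization (-0.21, adjusted p = 0.68). Both scalings ended the Decr2 call too. The ethanol-labelled minus control-labelled difference changed from peak to late resolution by -2.02 for Pdk4 and -1.47 for Acot2. That call of Pdk4 was lost without late ethanol female 1 and with the replicate number as a block.

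In 15 of 333 sets of 4 libraries, 1 library stood apart from the other 3 of its group by Dixon's ratio, where chance alone gives about 1 in 20 sets. At early resolution, control male 2 had 378 scaled TPM of Acsl1, control male 1 had 505 of Cpt1a, control female 2 had 102 of Cpt2, control male 3 had 247 of Slc25a20 and 478 of Etfb, control female 3 had 11.7 of Crat, and control female 4 had 489 of Acaa1b. Early ethanol male 2 stood apart for 3 members, with 2146 of Acaa2, 1026 of Etfb and 577 of Eci2. At peak, ethanol female 1 had 209 of Acadl, control female 1 had 515 of Hadha, control male 2 had 585 of Hadh and 4.31 of Acot3, and control female 4 had 110 of Etfa. No explanation of these was tested.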

How the results depend on the processing

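Of 76 member calls in the 13 comparisons, 53 held without any single library. Of those, 47 also held in every other setting that tested them. Each stage fitted alone cannot test a change between stages, and the filter at a mean of 5 left out Acot2. Weighting libraries by their quality (array weights) called 19 members between diet labels at peak and 20 at late resolution, 13 between sex labels at early and 6 at late resolution, and 4 in the interaction at peak. For the change of the diet-label difference it called 1 to early and 8 to late resolution, and for that of the sex-label difference 23 and 16. With TPM as deposited, 28 members were called between sex labels at peak and 0 at early resolution, and 27 and 19 for the change of the sex-label difference to early and late resolution. With quantile normalization, 0 were called between sex labels at early and 2 at late resolution, and 20 for the change to early resolution. Each stage fitted alone gave 0 and 2 between sex labels at early and late resolution. No filter gave 0 between sex labels at late resolution. A mean of at least 5 left Acot2 untested and gave 1 for the change of the diet-label difference to late resolution. The cause of the other shifts was not tested. Except where given above, the shares of all genes called in these settings are not given here. The counts therefore do not tell whether the members moved more than other genes.

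The replicate number as a block (replicate block) gave 6 members between diet labels at late resolution, 0 and 0 between sex labels at early and late resolution, and 1 for the change of the diet-label difference to late resolution. The shares of all genes called with the block are not given here. The block ended the calls between diet labels of Hadha at peak, of Pdk4 at early resolution and of Hadh, Ehhadh, Hsd17b4, Acot2 and Vnn1 at late resolution, and those between sex labels of Decr2 at peak, Hsd17b4 at early and Angptl4 at late resolution (adjusted p of 0.053 to 0.16). No label says that the numbers pair libraries, and their correlations over all pairs do not meet 0.1 throughout. Same-numbered libraries correlated by -0.39 to 0.25 over 21 diet pairs and by -0.42 to 0.51 over 22 sex pairs, and 6 and 7 of them correlated best with their own number. The 4 female-labelled diet pairs at peak stand out, at 0.12 to 0.21, each best with its own number, which is a hint from the data.

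Leaving out each library in turn gave 9 to 13, 14 to 17 and 8 to 14 members between diet labels at peak, early and late resolution, and 10 to 14, 0 to 6 and 0 to 5 between sex labels. Apart from those given above without late control female 1, the shares of all genes called in these fits are not given here. The ranges therefore do not tell whether the members moved more than other genes. Between sex labels at early resolution, where 1 member was called, 0 were called without early ethanol female 2 or male 4, 6 without early ethanol female 1, 5 without early ethanol male 2, and 2 or 3 without peak control female 4, early control female 4 or male 2, early ethanol female 3, late control female 1 or 4, or late ethanol female 3. At late resolution, where 1 was called, 0 were called without late control female 1, 2 or 3, late ethanol female 1, late control male 2, 3 or 4, or late ethanol male 1, 2 or 3, and 2 to 5 without late control female 4, late ethanol female 3, peak control male 4, or early ethanol female 1 or 2 or male 2. For the change of the diet-label difference the range was 0 to 1 (early) and 1 to 4 (late), for the sex-label difference 11 to 16 and 4 to 12, and for the interactions 0 in each. Signs turned for 5 differences, of which only that of Decr2 at peak and that of its change to late resolution were called. Ppara between diet labels at early resolution ranged from -0.018 to 0.21, Cpt1a from -0.26 to 0.0020 (0.056 with TPM as deposited), and Ppara between sex labels at early resolution from -0.018 to 0.20 (-0.0022 without early ethanol male 1). Decr2 was -0.15 between sex labels at peak and 0.057 for its change to late resolution with TPM as deposited. Depth is hidden in TPM, which limits what can be said of Acot2, Acot4 and Pdk4 at a few scaled TPM.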
